A study of Mus musculus with 11 samples.

Results

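The NF-kB system of mammary tumours was followed through 10 genes, namely the subunits Nfkb1, Nfkb2, Rela and Relb, the inhibitors Nfkbia, Nfkbie and Tnfaip3, and the inflammatory target genes Icam1, Ccl2 and Cxcl1. Every array probe annotated to these genes was taken, which gave 11 probes for 9 of the 10 genes among the 45281 probes and 19057 named genes of the array. Nfkb1 was not analysed here, since no probe is named for it in the annotation used. All were spontaneous mammary tumours of female mice, excised at 12 weeks of age, and every mouse carried the PyMT transgene. The PyMT/SIRT6 group (5 arrays) also carried the Sirt6BAC allele, an extra Sirt6 gene on a bacterial artificial chromosome that overexpresses functional SIRT6, and the PyMT group (6 arrays) was wild type for that allele. The labels name neither the promoter that drives the PyMT transgene, which encodes the polyoma virus middle T oncogene, nor the mouse of each tumour, so the p-values reflect only how far these tumours varied, which may in part be technical. The study's comparison was PyMT/SIRT6 against PyMT tumours.

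NF-kB is a family of dimeric transcription factors that inhibitor proteins of the IkB class hold in the cytoplasm. Ligands such as TNF, interleukin-1 or bacterial products activate the IkB kinase complex, the inhibitor is degraded, and the dimer enters the nucleus and binds kB sites in promoters and enhancers. Several of its targets are its own inhibitors, so that the response limits itself, and others are chemokines and adhesion molecules that bring leukocytes into inflamed tissue and tumours. SIRT6 is a nuclear NAD-dependent deacylase which has been described as binding RELA and removing acetyl groups from histones at NF-kB target promoters, so that these genes are repressed.

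The kB consensus was searched on both strands in RefSeq promoter windows of GRCm38.p6, each running from 250 bases before to 50 bases after an annotated start. Windows were found for 7 of the 10 genes, and Nfkb1, Relb and Ccl2 had none in the table. A match stood in at least 1 window of 5 of these 7 genes, and 9.55% of all 27025 genes with a window had one. By window it was 7 of 10, overlapping windows of Nfkb2 among them, and 8.46% of all 32851 windows held one. The 150 bases before the start are shown for the 5 genes, a subunit, the 3 inhibitors and a target whose values follow, with the bases of kB matches in capitals. They lie at chr19:46304587-46304736 (+ strand, Nfkb2), chr12:55492648-55492797 (- strand, Nfkbia), chr17:45555550-45555699 (+ strand, Nfkbie), chr10:19015411-19015560 (- strand, Tnfaip3) and chr5:90891095-90891244 (+ strand, Cxcl1), each read 5′ to 3′ in the direction of the gene.
Nfkb2: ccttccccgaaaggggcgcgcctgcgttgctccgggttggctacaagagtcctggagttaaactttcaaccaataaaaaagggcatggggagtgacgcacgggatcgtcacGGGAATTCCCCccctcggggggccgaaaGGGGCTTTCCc
Nfkbia: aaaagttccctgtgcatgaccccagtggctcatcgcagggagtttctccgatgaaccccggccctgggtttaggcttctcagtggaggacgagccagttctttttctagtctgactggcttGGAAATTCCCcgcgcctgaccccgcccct
Nfkbie: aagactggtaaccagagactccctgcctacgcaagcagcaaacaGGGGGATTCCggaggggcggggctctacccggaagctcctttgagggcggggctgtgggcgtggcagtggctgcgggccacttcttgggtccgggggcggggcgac
Tnfaip3: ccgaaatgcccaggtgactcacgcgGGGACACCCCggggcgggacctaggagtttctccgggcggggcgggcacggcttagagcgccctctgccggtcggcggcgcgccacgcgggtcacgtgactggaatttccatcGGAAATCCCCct
Cxcl1: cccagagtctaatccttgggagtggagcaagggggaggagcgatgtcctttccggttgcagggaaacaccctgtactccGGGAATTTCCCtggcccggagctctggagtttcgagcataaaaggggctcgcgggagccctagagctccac
The Nfkbia match started 29 bases and the Nfkbie match 106 bases before the gene's start. Cxcl1 had matches on opposite strands that overlap, at 71 and 70 bases before the start. Nfkb2 had an overlapping pair at 39 and 38 bases and a further match at 11 bases before the start, and Tnfaip3 had matches at 125 and 12 bases before it. These positions come from a single start per gene, the first listed with a match in those 150 bases. Other windows of Nfkb2 also held matches, and the other window of Tnfaip3 held none. The windows of Icam1 and Rela held no match, which says only that these letters are absent from the stretch searched. A match is a description of the sequence and not a measured binding site.

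The arrays were Illumina Mouse WG-6 v2.0, and each value is a probe intensity on a linear scale that had not visibly been background-subtracted. Sirt6 itself was above all 6 PyMT arrays in all 5 PyMT/SIRT6 arrays on each of its 3 probes. The brightest had a geometric mean of 331 in PyMT/SIRT6 and 217 in PyMT tumours (log2 change 0.61 ± 0.09 SE, exact two-sided permutation p = 0.00216, the smallest 462 splits can give; limma adjusted p = 0.0574 over 14726 features). In the probe-level limma fit over all 45281 probes this probe and ILMN_2684910 passed, each at an adjusted p of 0.0386, and ILMN_2671176 did not (adjusted p = 0.183). Of 11 luminal epithelial markers 8 lay above the background defined below, with Epcam, Ehf and Esr1 at or under it, and the mean of the list was 9.70 to 10.01 in PyMT/SIRT6 and 9.48 to 10.18 in PyMT arrays on the log2 scale. Skeletal muscle markers varied far more, with a list mean of 7.53 to 11.43 in PyMT/SIRT6 and 7.51 to 11.68 in PyMT arrays. This mean exceeded 9 in 4 arrays, PyMT replicate 5 and PyMT/SIRT6 replicates 1, 4 and 5. Any fit without these muscle-high arrays keeps only replicates 2 and 3 of the PyMT/SIRT6 group.

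Which members could be measured was judged against 1276 probes of olfactory receptor genes, a family little used outside the nose. These had a median intensity of 149 and a 95th percentile of 160.5. A probe of 6 members lay above that percentile, namely Rela, Relb, Nfkbia (ILMN_3001914), Nfkbie (ILMN_2690551), Icam1 and Cxcl1, each of them in all 11 tumours. The probes of Nfkb2 and Tnfaip3 and the other probes of Nfkbia (ILMN_1218605) and Nfkbie (ILMN_1238752) lay below it in every tumour, and that of Ccl2 exceeded it in 2 of 11. For these 5 probes a small difference between genotypes need not reflect the level of the RNA. For members above that percentile, the background within each reading can make a log2 change and its interval smaller than those of the RNA. The same 6 members passed the filter of the gene-level comparison, which left out the lower 50% of features by mean (under an intensity of 158.6), and Nfkb2, Tnfaip3 and Ccl2 did not.

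**Figure D1:**
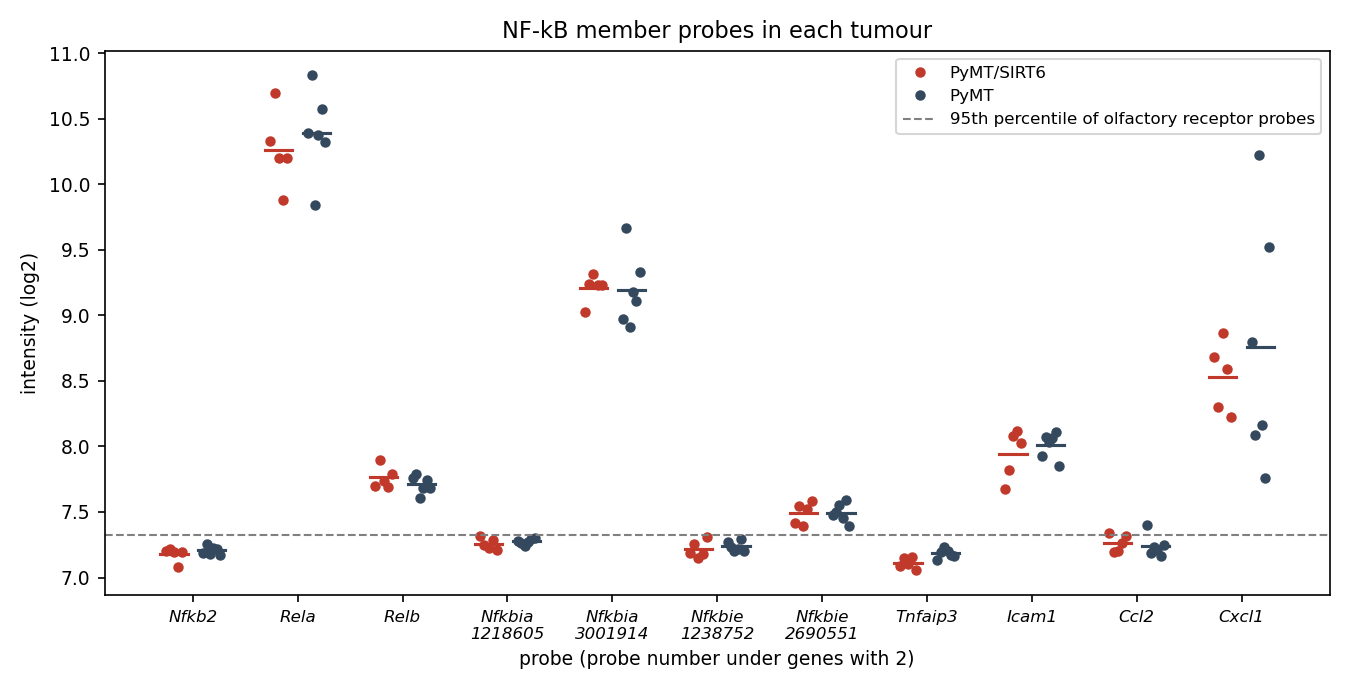
Intensity (log2) of each member probe in the 5 PyMT/SIRT6 tumours (left, red) and the 6 PyMT tumours (right, dark). Dots are tumours, bars are group means and the dashed line is the 95th percentile of olfactory receptor probes, an intensity of 160.5. Genotypes overlap for every probe, Cxcl1 is widely spread in PyMT tumours, and 5 probes sit around or below the line; heights are not compared between probes.

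None of the measured members passed the test for a difference between the genotypes. In limma 0 of the 6 members in the gene-level fit passed an adjusted p of 0.05, where 0.0136% of the 14726 features did, and 0 of the 6 passed at an unadjusted p under 0.05, where 4.43% of features did. In the probe-level fit over all 45281 probes 0 of the 11 member probes passed the adjusted threshold (0.00663% of all probes) and 1, that of Tnfaip3, had an unadjusted p under 0.05 (4.91% of all probes). The genotypes overlapped on all 11 member probes, while 0.464% of all probes had groups that did not overlap. Of the 6 members in the gene-level fit 2 had a positive and 4 a negative change, with a median of -0.04, and the median over all tested features was -0.01 with 46.9% positive. Over all 11 member probes, with no filter, 3 changes were positive and 8 negative with a median of -0.02, against a median of 0.00 over all 45281 probes. Each change below is a log2 difference, PyMT/SIRT6 minus PyMT.

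**Figure D2:**
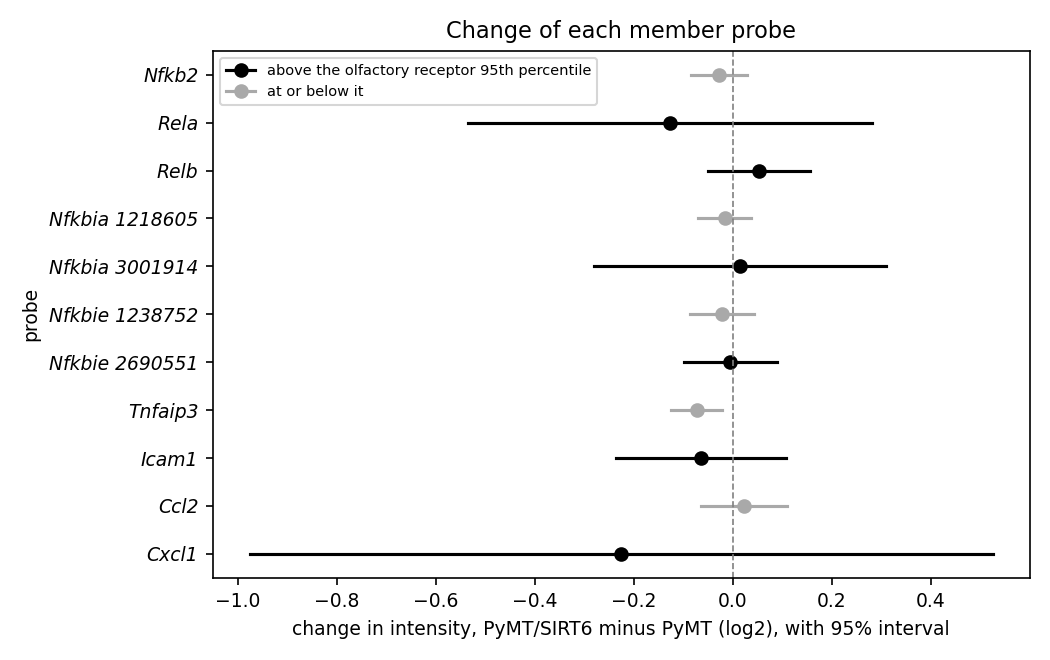
Log2 change of each member probe, PyMT/SIRT6 minus PyMT, with its 95% interval from the probe-level limma fit over 45281 probes. Black probes lie above the olfactory receptor 95th percentile and grey ones do not. The intervals of all probes but Tnfaip3 (-0.12 to -0.02, grey) include 0, and that of Cxcl1 is the widest (-0.98 to 0.52).

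Among the subunits, Rela encodes the activating subunit of the canonical dimer. Its intensity was 1286, 1662, 1179, 941 and 1177 in PyMT/SIRT6 replicates 1 to 5, and ran from 917 over a median of 1336 to 1820.0 in PyMT tumours. The groups overlapped almost wholly, with PyMT replicate 3 lowest and PyMT replicate 2 highest of all. On the log2 scale Rela averaged 10.26 ± 0.30 (SD, n = 5) in PyMT/SIRT6 and 10.39 ± 0.33 (SD, n = 6) in PyMT tumours. The change was -0.13 ± 0.18 (SE) with a 95% interval of -0.51 to 0.25 (limma adjusted p = 0.983). When the 4 arrays with a muscle mean above 9 were left out the Rela change was 0.10, with only replicates 2 and 3 left in the PyMT/SIRT6 group. Its direction is therefore not settled by these tumours.

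Relb, the subunit that pairs with the NFKB2 product in the non-canonical pathway, had a narrow range of intensity. On a scale with background included, this does not show that its RNA was even. PyMT/SIRT6 tumours had intensities of 208, 239, 213, 207 and 222, and PyMT tumours 195 at the lowest, 210.4 at the median and 222 at the highest. PyMT/SIRT6 replicate 2 was above every other tumour and the rest were interleaved or level with the highest PyMT tumour. The change in Relb was 0.05 ± 0.05 (SE), with a 95% interval of -0.06 to 0.17 on this uncorrected scale (limma adjusted p = 0.983). The Relb change was 0.02 without PyMT/SIRT6 replicate 2 and 0.03 without PyMT replicate 3. It was 0.11 without the 4 arrays with a muscle mean above 9, and also 0.11 with background subtracted by normexp.

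Nfkb2, the precursor whose processed form joins RELB, was not separable from background. Its intensities were 147, 149, 147, 136 and 147 in PyMT/SIRT6 tumours, and 144 to 153 with a median of 147 in PyMT tumours. All 11 values lay under the olfactory receptor 95th percentile. PyMT/SIRT6 replicate 4 stood below the others, and the change was -0.03 ± 0.03 (SE, limma adjusted p = 0.979 over all probes). Without that tumour the Nfkb2 change was -0.0039, and without PyMT replicate 2 it was -0.018.

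Of the inhibitors, Nfkbia encodes IkB-alpha, the inhibitor that NF-kB itself induces and that is widely used as a readout of its activity. The brighter Nfkbia probe had intensities of 521, 604, 636, 601 and 602 in PyMT/SIRT6 tumours, against 481 at the lowest, 566 at the median and 812 at the highest in PyMT tumours. The PyMT/SIRT6 tumours lay inside the PyMT range, whose top was PyMT replicate 2 and whose bottom was PyMT replicate 3. Means were 9.21 ± 0.11 (SD, n = 5) in PyMT/SIRT6 and 9.19 ± 0.28 (SD, n = 6) in PyMT tumours on the log2 scale. The change in Nfkbia was 0.01 ± 0.13 (SE), with a 95% interval of -0.27 to 0.30 (limma adjusted p = 0.996). The dim Nfkbia probe had 148 to 159.8 in PyMT/SIRT6 and 151 to 158 in PyMT tumours.

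Nfkbie encodes IkB-epsilon, another inhibitor induced by NF-kB. Its brighter probe had 170.5, 187, 168, 184 and 192 in PyMT/SIRT6 tumours, and 168 at the lowest, 179.5 at the median and 193 at the highest in PyMT tumours. The ranges nearly coincided, and the change was -0.01 ± 0.05 (SE, 95% interval -0.10 to 0.09, limma adjusted p = 0.995). That interval is on the uncorrected scale and does not bound the change in RNA. With background subtracted by normexp the Nfkbie change was -0.016. The other Nfkbie probe had 142 to 159 in PyMT/SIRT6 and 147 to 157 in PyMT tumours.

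Tnfaip3 encodes A20, a ubiquitin-editing enzyme that ends NF-kB signalling and is induced by it. Its probe read 136, 142, 138, 143 and 133 in PyMT/SIRT6 tumours, and 141 at the lowest, 145 at the median and 150.4 at the highest in PyMT tumours. PyMT/SIRT6 tumours were mostly lower, with replicates 2 and 4 inside the PyMT range, and every value lay below the olfactory receptor median of 149 except that of PyMT replicate 3. The Tnfaip3 change of -0.07 ± 0.02 (SE) had a limma unadjusted p of 0.00852 and an adjusted p of 0.979 over all probes, and 2.7% of all probes had an unadjusted p under 0.05 in the same direction. At this level the Tnfaip3 probe could not be told apart from background, so the difference need not reflect its RNA.

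The target genes differed in how far they varied between tumours. Icam1, the adhesion molecule that leukocytes bind on activated endothelium and epithelium, had intensities of 204, 226, 270.0, 278 and 260.3 in PyMT/SIRT6 tumours, against 231 at the lowest, 265 at the median and 276 at the highest in PyMT tumours. PyMT/SIRT6 replicates 1 and 2 were the lowest of all 11 and PyMT/SIRT6 replicate 4 the highest. The change was -0.07 ± 0.09 (SE, 95% interval -0.26 to 0.13, limma adjusted p = 0.983), and it was 0.00 without PyMT/SIRT6 replicate 1. With background subtracted by normexp the Icam1 change was -0.13. Endothelial markers, 9 of 10 above the olfactory receptor 95th percentile with Kdr not above it, had a list mean of 7.62 to 7.89 in PyMT/SIRT6 and 7.77 to 7.90 in PyMT arrays, with PyMT/SIRT6 replicate 1 lowest. Across arrays the endothelial mean and Icam1 had r = 0.48 (permutation p = 0.141). In bulk tumour RNA fewer cells of a type and less RNA per cell cannot be told apart.

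Cxcl1, a chemokine that attracts neutrophils, had the widest span of the 11 member probes. Its intensities were 411, 315, 467, 385 and 299.8 in PyMT/SIRT6 tumours, a 1.56-fold span. In PyMT replicates 1 to 6 they were 444, 273, 1195, 287, 216 and 736, a 5.53-fold span. PyMT tumours thus held the extremes at each end, with replicates 3 and 6 above every PyMT/SIRT6 tumour and replicates 2, 4 and 5 below every one. The log2 mean was 8.53 ± 0.27 (SD, n = 5) in PyMT/SIRT6 and 8.76 ± 0.95 (SD, n = 6) in PyMT tumours. The change of -0.23 ± 0.37 (SE) had a 95% interval of -1.03 to 0.58 (limma adjusted p = 0.983), and it was 0.07 without PyMT replicate 3. The difference in spread was not tested. Of 10 neutrophil markers 5 lay above the olfactory receptor 95th percentile, while Ngp, Retnlg, Mpo, Cxcr2 and Camp did not. The list mean was 8.21 to 8.38 in PyMT/SIRT6 and 8.10 to 8.61 in PyMT arrays, and PyMT replicate 3, the highest in Cxcl1, was the lowest in this list.

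Ccl2 encodes the main chemokine for monocytes. It had 162, 147, 147, 154 and 159 in PyMT/SIRT6 tumours, and 144 at the lowest, 149 at the median and 169 at the highest in PyMT tumours. Only PyMT replicate 1 and PyMT/SIRT6 replicate 1 exceeded the olfactory receptor 95th percentile, and the change was 0.02 ± 0.04 (SE, limma adjusted p = 0.982 over all probes). The 13 macrophage markers measured were all above that percentile, with a list mean of 9.08 to 9.54 in PyMT/SIRT6 and 9.00 to 9.44 in PyMT arrays. Of 9 fibroblast markers 7 were above it, Fap and Pdgfrb were not, and the list mean was 8.07 to 8.69 in PyMT/SIRT6 and 7.96 to 8.49 in PyMT arrays. The macrophage mean and Ccl2 had r = 0.32 (permutation p = 0.335), and the part of fibroblasts in the Ccl2 values was not tested.

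**Figure D3:**
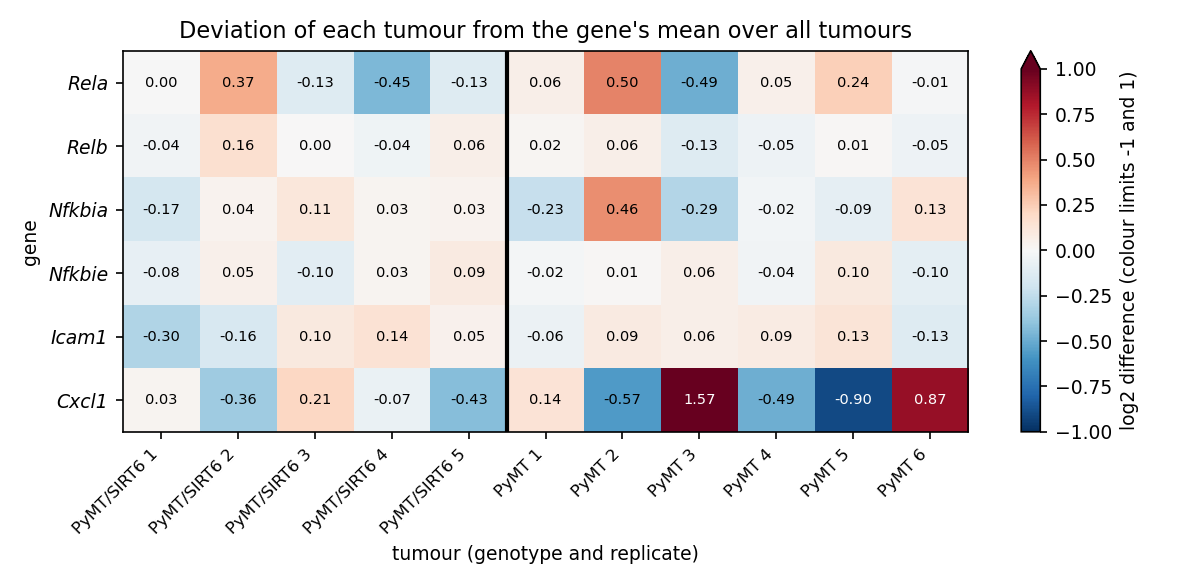
Log2 deviation of each tumour from the gene's mean over all 11 tumours, for the 6 members above background; PyMT/SIRT6 tumours stand left of the line and PyMT tumours right of it. PyMT replicate 3 is highest in Cxcl1 (1.57) and lowest in Rela (-0.49), Relb (-0.13) and Nfkbia (-0.29), and PyMT replicate 2 is highest in Rela (0.50) and Nfkbia (0.46).

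Several of the members' extremes fell in PyMT replicates 2 and 3, and the others in different tumours. PyMT replicate 3 had the highest Cxcl1 of all tumours (1.57 above its mean on the log2 scale) together with the lowest Rela, Relb and Nfkbia, and its luminal marker mean of 9.48 was also the lowest. PyMT replicate 2 had the highest Rela and Nfkbia and a Cxcl1 value 0.57 below the mean. The 7 pairs with a probe for each side were examined with genotype means removed, and in 0 of the 7 did Pearson's r or Spearman's rho pass after Benjamini-Hochberg adjustment. The closest was Relb with Nfkb2 (r = 0.58, permutation p = 0.0628, adjusted 0.439; rho = 0.62, permutation p = 0.0482, adjusted 0.338; 11 arrays), where r was 0.36 without the 2 arrays farthest from the Relb median. Nfkbia and Cxcl1, both direct targets, had r = -0.38 (permutation p = 0.249, adjusted 0.581) and rho = -0.15 (permutation p = 0.653, adjusted 0.762), with r = 0.34 without the 2 arrays farthest from the Nfkbia median.

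The other pairs were no closer. Nfkbia with Tnfaip3 had r = 0.08 (permutation p = 0.832) and rho = -0.02 (permutation p = 0.968), and Ccl2 with Cxcl1 had r = 0.23 (permutation p = 0.487) and rho = 0.38 (permutation p = 0.248). Macrophage markers with Ccl2 had r = 0.32 (permutation p = 0.335) and rho = 0.48 (permutation p = 0.138). Endothelial markers with Icam1 had r = 0.48 (permutation p = 0.141) and rho = 0.36 (permutation p = 0.272). Neutrophil markers with Cxcl1 had r = -0.19 (permutation p = 0.556) and rho = 0.18 (permutation p = 0.594). Adjusted p-values of these 5 pairs were 0.477 or higher, and without the 2 arrays farthest in the first measure their r was 0.34, 0.36, 0.47, 0.53 and 0.52 in the same order. Within the 6 PyMT arrays alone r ran from -0.41 for Nfkbia with Cxcl1 to 0.64 for endothelial markers with Icam1, with adjusted exact permutation p of 0.744 or higher. The Nfkb2, Tnfaip3 and Ccl2 probes in these pairs read at or near background.

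For each member above background the gene with the most similar profile was taken from 11367 others, over 11 tumours with genotype means removed. Rela was most like Mbp, the myelin basic protein gene (r = 0.98), and Cxcl1 most like Wdr33, a messenger RNA processing factor (r = 0.95). Relb was most like the MAP kinase kinase Map2k2 (r = 0.94), Icam1 most like Ccdc127 (r = 0.91), Nfkbie most like Rilpl1 (r = 0.90) and Nfkbia most like the adhesion molecule Nectin4 (r = 0.89). These are descriptions of 11 shared arrays, in which the best of many genes is high by selection. In 0 of the 6 cases was the closest gene another member or one of the 79 pathway genes tested below. Such genes are few among the 11367, so this count says little about whether members follow their pathway.

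The wider pathway was read from 6 lists by role. Of 104 genes listed 96 had a probe and 79 were tested, 42 with a positive and 37 with a negative change. By limma 0 passed the adjusted threshold and 2 had an unadjusted p under 0.05, where 4.43% of all features did. Their median change was 0.01, against -0.01 over all tested features, and in 0 of the 79 did the genotypes fail to overlap (0.489% of features).

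Among the ligands that start the pathway Tnf was dim. It had 168, 169, 165, 153 and 163 in PyMT/SIRT6 tumours and 158 to 193 with a median of 174 in PyMT tumours, so that PyMT/SIRT6 replicate 4 lay below every PyMT tumour and the other 4 in the lower part of the PyMT range. Its change was -0.09 ± 0.05 (SE, limma unadjusted p = 0.107, adjusted 0.983), and its second probe (ILMN_2899863) differed by -0.09 as well. Il1a and the lymphotoxin gene Ltb differed by -0.03 ± 0.04 and 0.03 ± 0.04 (SE). Of 7 ligands tested 4 were positive and 3 negative, and 0 passed.

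Receptors and adaptors, the layer that receives these signals, held 15 positive and 6 negative changes among 21 tested, with a median of 0.04 and 0 passing. Cd14, the co-receptor for bacterial lipopolysaccharide, had 3981, 3413, 3384, 2648 and 3224 in PyMT/SIRT6 tumours and 1632 to 3364 with a median of 2869 in PyMT tumours. In 3 of 5 PyMT/SIRT6 tumours it thus exceeded every PyMT tumour, and the change was 0.32 ± 0.18 (SE, limma unadjusted p = 0.0972, adjusted 0.983). The Toll-like receptors Tlr2 and Tlr4 differed by 0.18 ± 0.10 and 0.14 ± 0.08 (SE), with limma unadjusted p of 0.0969 and 0.0939, and the other Tlr4 probes differed by 0.13 (ILMN_2684234) and, at background level, -0.03 (ILMN_2690004). Cd14 is also a macrophage marker, the macrophage list mean was 0.18 higher in PyMT/SIRT6 tumours, and the part of macrophages in these receptor values was not tested.

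The kinases had 7 negative and 2 positive changes of 9 tested, all between -0.11 and 0.04. Ikbkg, the regulatory subunit of the IkB kinase complex, differed by -0.11 ± 0.09 (SE) on its brightest probe and by 0.09 on the next (ILMN_2630423), so its probes disagreed in sign. The catalytic subunit gene Ikbkb differed by -0.06 ± 0.06 and the related kinase gene Ikbke by -0.03 ± 0.04 (SE). Other Rel and IkB proteins were split 3 and 3, among them Nfkbil1 (0.03 ± 0.04), the nuclear IkB protein gene Bcl3 (-0.06 ± 0.09) and Nkiras2, whose product binds IkB (-0.05 ± 0.09 SE). Other inhibitors were split 4 positive and 5 negative. They included Pias4, a SUMO ligase gene (-0.14 ± 0.08, with 0.02 on its dim probe ILMN_1242783), the linear-ubiquitin hydrolase gene Otulin (-0.13 ± 0.10) and the A20 adaptor gene Tax1bp1 (-0.16 ± 0.13 SE).

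Other targets were 14 positive and 13 negative of 27 tested, and the 2 pathway genes with an unadjusted p under 0.05 were here. Cflar, which blocks caspase-8 and so protects cells from death receptors, had 663, 433, 545, 694 and 581 in PyMT/SIRT6 tumours and 347 to 534 with a median of 437 in PyMT tumours. In Cflar 4 of 5 PyMT/SIRT6 tumours exceeded every PyMT tumour, and the change was 0.42 ± 0.14 (SE, limma unadjusted p = 0.0114, adjusted 0.983). The highest values were those of PyMT/SIRT6 replicates 1, 4 and 5, the arrays of that group with a muscle mean above 9. PyMT replicate 5, also above 9, read no higher than 534, the top of the PyMT group to which it belongs. The part of muscle in the Cflar values was not tested. The other Cflar probes (ILMN_2743945 and ILMN_2748129) were dim and differed by 0.00 and -0.02. Cxcl10, a chemokine for T cells that interferons also induce, had 155, 157, 174, 146 and 159 in PyMT/SIRT6 tumours and 162 to 185 with a median of 168 in PyMT tumours. Its change was -0.11 ± 0.05 (SE, limma unadjusted p = 0.0332, adjusted 0.983), at a level near the olfactory receptor 95th percentile, and its dimmer probe (ILMN_1214419) differed by -0.03. Csf1, the macrophage growth factor, differed by 0.08 ± 0.05 (SE).

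**Figure D4:**
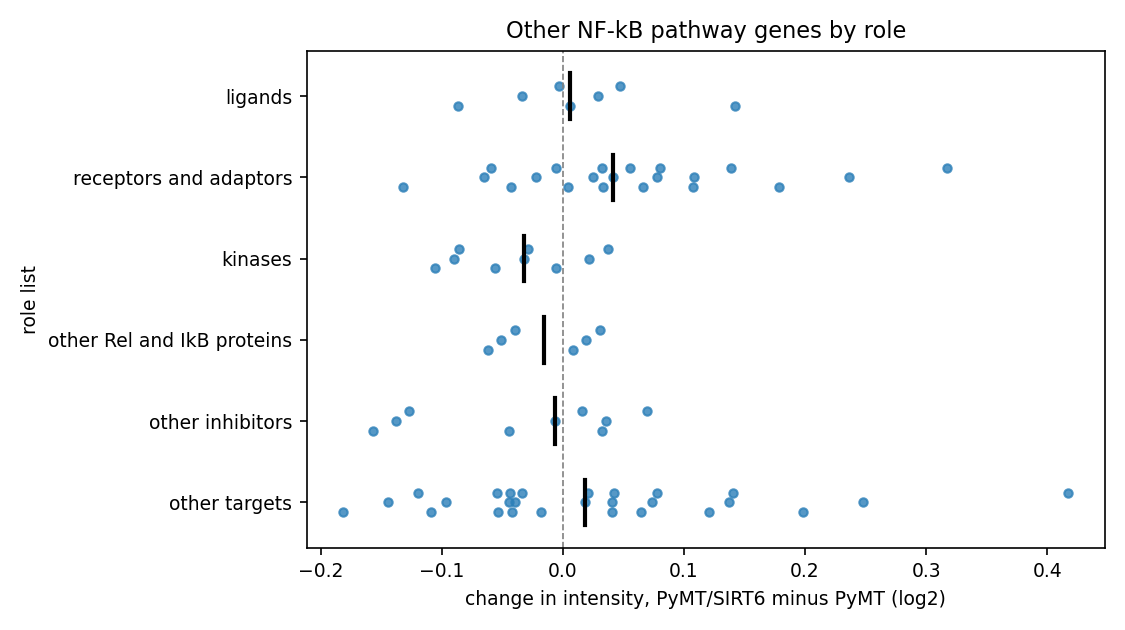
Log2 change, PyMT/SIRT6 minus PyMT, of the 79 tested pathway genes outside the member list, by role; each dot is a gene and each bar the list's median. Medians lie between -0.03 for kinases and 0.04 for receptors and adaptors, and the dot at 0.42 among other targets is Cflar.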

How the data were processed

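Per the labels' protocols, RNA of 11 tumours was turned into biotinylated cRNA and measured on Illumina arrays (Mouse WG-6 v2.0). The deposited values are linear intensities with medians of 157.5 to 157.6 and a top of 40180.3 on every array. The 11 columns shared their quantiles within 1.08%, so the authors' values were not rescaled, and the sources used here do not give their background treatment. Groups came from the genotype label, and replicate numbers follow deposit order and pair nothing. The number of arrays limits the precision.

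Of 45281 probes 34885 had a single gene symbol, 18 several and 10378 none. Symbols were checked by gene identifier against RefSeq GRCm38.p6 (34807 matched, 0 changed). The gene-level fit kept each gene's brightest probe and unnamed probes (29453 features), left out the lower 50% by mean and ran limma 3.58.1 (R 4.3.3) with lmFit and eBayes with trend on log2 values of 14726 features, adjusted by Benjamini-Hochberg. The probe-level fit used all 45281 probes unfiltered. In simulations of this comparison with 200 changed features each, log2 changes of 0.5 were found in 55 of 67 cases among 14726 features at gene level and in 56 of 67 among 45281 at probe level. The changed features were drawn at random with independent normal noise, and 200 true changes ease the adjusted threshold. In the data only 2 features passed at gene level, so these shares do not give the chance of finding such a change in a member. Pairs used 100000 permutations, or all orders within PyMT arrays. The pair of Rela with Nfkb1 was planned and not analysed here.

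Named genes were all members, Sirt6, per role list the genes past the threshold or else the 3 of smallest p, and the closest profile per member. Members, lists and tests were chosen with earlier results of these data known.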

Additional observations from a re-analysis of the deposited data

Results flagged for a closer look

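Each of the 11 member probes was examined in each genotype for a tumour far from the rest of its group, 22 groups in all, of which chance alone would pick out about 1 in 20. The lowest PyMT/SIRT6 tumour for Nfkb2 was replicate 4, at 7.08 on the log2 scale where the next was 7.20. The highest PyMT tumour for Ccl2 was replicate 1, at 7.40 where the next was 7.25. Nfkb2 was below the olfactory receptor 95th percentile in every tumour, and Ccl2 exceeded it in 2 of 11.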

How the results depend on the processing

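The refits gave 207 member results, each for 1 member under 1 setting, 121 of them with an array left out. Members share each refit, and all refits use the same arrays, so these results are not independent. Of them 0 passed the limma adjusted threshold, and the lowest adjusted p was 0.607. The sign held in 191 and turned in 16. Rela was at 0.10 without the muscle-high arrays. Nfkbia was at -0.0015 with the mean of its probes, -0.023 with array weights and -0.017 with macrophage markers as covariate, and -0.043 to 0.11 with an array left out. Nfkbie was at 0.017 with array weights and 0.0037 with macrophage markers as covariate, and -0.028 to 0.020 with an array left out. With an array left out Rela ran from -0.24 to -0.03, Relb from 0.02 to 0.07, Nfkb2 from -0.037 to -0.0039 and Ccl2 from 0.0039 to 0.055. In these refits Icam1 ran from -0.11 to 0.0015 and Cxcl1 from -0.43 to 0.067, and under the other settings Cxcl1 ran from -0.38 to -0.05 and Rela from -0.23 to 0.10. Tnfaip3 was at -0.33, Icam1 at -0.13 and Relb at 0.11 with normexp and an offset of 16, which stretches dim values. The cause of the shifts under any setting was not tested.

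The count of features called, 2 in the gene-level fit, was 4 with the mean of a gene's probes, with normexp and with array weights, 1 with deposit order as a block, 0 without the muscle-high arrays (442 at an unadjusted p under 0.05) and 1 to 3 with an array left out. The count of probes called, 3, was 6 with the lower 50% of probes left out, 9 with normexp and 0 to 4 with an array left out. Sirt6, not past the adjusted threshold in the gene-level fit, passed at 0.61 without a filter, with the lower 75% left out and with robust eBayes. It also passed at 0.46 with the mean of its probes, 1.04 with normexp, 0.55 with array weights and 0.65 with skeletal muscle markers as covariate. Sirt6 did not pass with an array left out, whichever it was (limma adjusted p 0.0549 to 0.256), or without the muscle-high arrays (0.69, limma adjusted p = 0.581). Nor did it pass with arrays centred on their median, log2(intensity + 50), eBayes without trend, deposit order as a block or macrophage markers as covariate (limma adjusted p 0.0505 to 0.0765). Without the 2 arrays farthest in the first measure r turned to 0.34 for Nfkbia with Cxcl1 and 0.52 for neutrophil markers with Cxcl1. No paired analysis was made because the labels link no PyMT/SIRT6 tumour to a PyMT tumour, and the replicate numbers used here only name arrays in deposit order. Signal near background limits what Nfkb2, Tnfaip3 and Ccl2 can show.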
